A study of Mus musculus with 12 samples.

Results

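Keratin 7, keratin 8, keratin 18, keratin 19 and keratin 80 (Krt7, Krt8, Krt18, Krt19, Krt80), vimentin (Vim) and the small proline-rich protein 1A (Sprr1a) are the 7 genes described here, of 17576 genes in an RNA-seq table of mouse C18-4 cells. The 7 were taken by symbol, and each symbol had 1 row in the table. They were chosen by name with earlier results of the same libraries known: in KD against 3NC, Krt7 had the 6th largest and Sprr1a the 4th most negative difference of 11435 genes tested. For the 7 genes, the values of KD against 3NC, and of the comparisons that share libraries with it, are therefore given as a description without a test. The comparison of OV with 5NC shares no library with KD against 3NC, and its test is given, although whether OV values bore on the choice of genes is not recorded. It does share the 5NC libraries with 5NC against 3NC and KD against 5NC, both known when the genes were chosen. The p-values of OV against 5NC may therefore not be independent of that choice.

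The study used C18-4 cells, which it describes as a mouse line of spermatogonial stem cells. It altered the long non-coding RNA lncRNA5251 in them with lentiviral vectors to ask which genes follow. Gene expression was deposited for 12 libraries in 4 groups of 3. Cells of the group KD carried the LV3 vector with a mixture of 3 short hairpin RNAs (shRNAs) directed at lncRNA5251, and cells of 3NC carried LV3 with a control shRNA. For OV the vector was LV5 with lncRNA5251 as its insert, and for 5NC it was LV5 without an insert. All groups were stably transfected C18-4 cultures, and nothing in the labels says that the 3 libraries of a group came from separate cultures, so p-values measure the spread between these libraries, which may be technical. The vector and the culture cannot be told apart in 5NC against 3NC, nor in any other comparison of an LV5 group with an LV3 group.

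The values were read numbers scaled to gene length and to the mapped reads of the library (RPKM), and summed to between 533099 and 580920 per library. Spearman's rho between libraries of 1 group was between 0.9925 and 0.998 over the genes tested, and no pair of libraries held the same values. The level of lncRNA5251 was not analysed here, so the labels KD and OV were not checked against their target. Each of the 3 knockdown sequences had an exact match in 1 annotated gene, Purb, which encodes a DNA- and RNA-binding protein, and none matched any of the 7 genes. Purb was at 33.6 ± 0.624 RPKM in 3NC and 9.32 ± 0.806 in KD, and at 30.7 ± 1.46 in 5NC and 27.1 ± 5.30 in OV (SD, n = 3 each). Of 20 germ cell markers in the table, 3 had a mean of at least 1 RPKM (Etv5, Piwil2 and Id4), and Ret, Pou5f1, Nanos2, Kit and Mael were listed at 0 in all 12 libraries. Ddx4, Dazl, Gfra1 and Zbtb16 had means of at most 0.105 RPKM. The summed level of the 20 germ cell markers was between 7.42 and 7.93 RPKM in KD, between 11.2 and 12.2 in 3NC, between 10.5 and 11.9 in 5NC and between 9.19 and 10.3 in OV. Of 15 Sertoli cell markers, 7 had a mean of at least 1 RPKM, led by Wt1 (52.0) and Tjp1 (36.8), which carried most of the sum of the list. Sox9, Amh, Dmrt1, Cldn11 and Nr5a1 of the same list had means of at most 0.0625 RPKM. The summed level of the Sertoli cell markers was between 99.9 and 101.3 RPKM in 3NC, 103 and 109 in KD, 111 and 112 in 5NC and 100.1 and 114 in OV, without overlap of 3NC with KD or 5NC. Among peritubular myoid markers 4 of 7, among Leydig cell markers 1 of 4, among macrophage markers 1 of 6 and among endothelial markers 0 of 5 reached a mean of 1 RPKM. The summed myoid markers were between 77.5 and 82.0 RPKM in 3NC and 102 and 108 in KD, and between 83.4 and 88.2 in 5NC and 66.9 and 80.4 in OV, without overlap in either comparison. Tagln (mean 56.3 RPKM) and Acta2 (15.5) carried most of that sum, while Myh11, Actg2 and Smoc1 had means of at most 0.0408. The summed macrophage markers were between 5.40 and 6.89 RPKM in 3NC, 3.50 and 4.78 in KD, 2.67 and 3.18 in 5NC and 1.96 and 3.66 in OV. Cd68 (mean 2.94 RPKM) carried most of that sum, while Ptprc, Csf1r and Itgam had means of at most 0.035. Leydig cell markers summed to at most 2.39 RPKM and endothelial markers to at most 1.07 in any library. Whether cells of these types were present was not tested, nor was the part of these markers in the results below. In bulk RNA, fewer cells of a type and less RNA per cell cannot be told apart.

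Intermediate filaments are the rope-like part of the cytoskeleton. Keratins, the filaments of epithelia, are built from pairs of 1 type I and 1 type II chain, so that neither chain forms a filament by itself. Krt7, Krt8 and Krt80 are type II chains, and Krt18 and Krt19 are type I chains. Krt8 and Krt18 are the pair of simple epithelia and of the early embryo, Krt7 and Krt19 mark ducts and other simple epithelia, and Krt80 is found near desmosomal junctions. Vimentin is a type III protein that assembles with itself and is typical of mesenchymal cells and of many cultured lines. Sprr1a is not a filament protein but a precursor of the cornified envelope, the cross-linked protein shell of squamous keratinocytes. In the testis, vimentin is the main filament of Sertoli cells, and Krt8 and Krt18 mark immature ones.

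In gene order along the chromosomes Krt80 and Krt7 are next to each other, as are Krt8 and Krt18, all on chromosome 15. Krt19 lies between Krt15 and Krt9 on chromosome 11, Sprr1a between Sprr3 and Sprr4 on chromosome 3, and Vim on chromosome 2. RefSeq promoter windows were matched for 5 of the 7 genes (Krt7, Krt8, Krt18, Vim and Sprr1a), and the 250 bases before the annotated start were searched on both strands for TGANTCA (the AP-1 motif), TATAAA (the TATA box), GGAAGT (an ETS motif) and GGGCGG (the GC box). No motif overlapped another in the windows shown. Krt7 and Sprr1a are printed because these genes had the widest range of levels over the libraries, with AP-1 and GC box matches in capitals.
Krt7, chr15:101412153-101412402 (GRCm38.p6, plus strand): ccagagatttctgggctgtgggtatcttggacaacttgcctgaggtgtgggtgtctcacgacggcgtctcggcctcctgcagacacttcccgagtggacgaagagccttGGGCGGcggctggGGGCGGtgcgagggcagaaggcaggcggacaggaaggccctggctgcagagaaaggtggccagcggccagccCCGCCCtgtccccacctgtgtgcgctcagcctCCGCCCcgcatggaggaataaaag
Sprr1a, chr3:92485882-92486131 (GRCm38.p6, minus strand): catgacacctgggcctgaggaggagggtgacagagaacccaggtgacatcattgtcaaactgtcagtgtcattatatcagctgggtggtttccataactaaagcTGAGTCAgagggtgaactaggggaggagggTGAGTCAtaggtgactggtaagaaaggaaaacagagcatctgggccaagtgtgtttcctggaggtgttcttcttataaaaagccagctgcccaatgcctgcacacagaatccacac

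The Sprr1a window held TGAGTCA at 2 places, which began 146 and 116 bases before the start, and TATAAA 43 bases before it. Among 32851 promoter windows of the same length, 6.75% held at least 1 match to TGANTCA and 0.338% held at least 2. The Krt7 window held 4 GC boxes, 141, 128, 56 and 24 bases before the start, and an ETS match at 166 bases. At least 1 GC box was present in 32.7% of the windows, and at least 2 in 16.7%. No TGANTCA was found in the windows of Krt7, Krt8, Krt18 and Vim. The ETS letters, present in 19.7% of all windows, were also found 205 bases before the start of Krt8 and 200 bases before that of Vim, and TATAAA, present in 12.4%, was found 32 bases before that of Vim. A match is a run of letters and does not show that a factor binds there.

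Vim and the type I keratins were the most abundant of the 7 transcripts. In every group the order of the mean RPKM was Vim, Krt19, Krt18 and Krt80, and in each of these steps the 3 libraries of one gene lay wholly above those of the next. Averaged over the 12 libraries, Vim was at 556 RPKM and had place 149 of 17576 genes, Krt19 was at 257 with place 306, and Krt18 was at 73.1 with place 1303. The type II keratins were far lower: Krt80 was at 12.4 RPKM, Krt7 at 3.11 and Krt8 at 1.87. Below Krt80 the order depended on the group. It was Sprr1a, Krt8, Krt7 in 3NC and Krt7, Krt8, Sprr1a in KD, 5NC and OV, and the only neighbours whose libraries overlapped were Krt7 and Krt8 in OV. The genes also differed in how far they varied over the 12 libraries. The highest value was 1.22 times the lowest for Vim, 1.72 times for Krt18, 1.77 times for Krt19, 2.67 times for Krt8, 2.91 times for Krt80 and 10.7 times for Krt7.

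**Figure D1:**
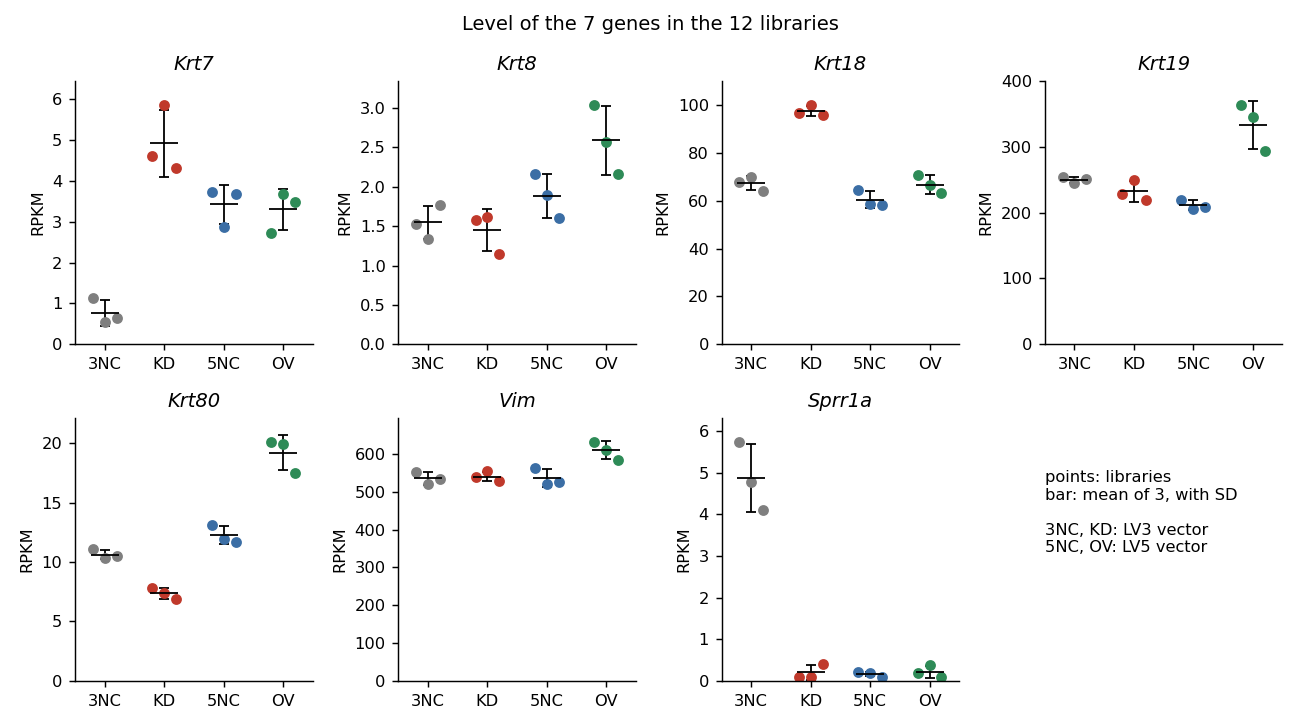
RPKM (vertical axis, from 0, with its own scale for each gene) of the 7 genes in the groups 3NC, KD, 5NC and OV. Points are libraries and bars give the mean and SD of 3 libraries. Krt7 is lowest and Sprr1a highest in 3NC, Krt18 is highest in KD, and Krt19, Krt80 and Vim are highest in OV.

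Among the type II keratins, Krt7 was at 1.13, 0.55 and 0.63 RPKM in the 3 libraries of 3NC, at 4.60, 5.86 and 4.31 in KD, at 3.72, 2.87 and 3.68 in 5NC, and at 2.73, 3.69 and 3.49 in OV. The 3NC libraries stood apart below the other 9, and the libraries of 5NC and OV overlapped. Krt80 was at 11.1, 10.3 and 10.5 RPKM in 3NC, at 7.84, 7.37 and 6.91 in KD, at 13.1, 11.9 and 11.7 in 5NC, and at 20.1, 19.9 and 17.5 in OV. No pair of groups overlapped for Krt80, with KD lowest and OV highest. Krt8 was at 1.53, 1.34 and 1.77 RPKM in 3NC, at 1.58, 1.62 and 1.14 in KD, at 2.16, 1.89 and 1.60 in 5NC, and at 3.04, 2.57 and 2.16 in OV. Its groups overlapped in part, and its highest 2 libraries were in OV. Of the runs of 50 bases in the longest annotated Krt8 transcript, 29.7% (567 of 1909) also occur in another annotated gene, mostly in the pseudogene Krt8-ps, so reads of Krt8 may have been shared with it and its level is uncertain. The same share was 3.88% for Krt80 and at most 0.720% for the other genes.

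Of the type I keratins, Krt18 was at 67.9, 70.2 and 64.3 RPKM in 3NC, at 96.8, 100.2 and 96.1 in KD, at 64.6, 58.9 and 58.2 in 5NC, and at 70.8, 66.5 and 63.1 in OV. The 3 KD libraries stood above the other 9, which overlapped between groups. Krt19 was at 255, 245 and 251 RPKM in 3NC, at 229, 249 and 219 in KD, at 220.0, 206 and 209 in 5NC, and at 364, 345 and 293 in OV. The 3 OV libraries were above every other library, and KD overlapped with both 3NC and 5NC. The 2 chains thus differed in the group in which they were highest.

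Vim was at 553, 520.1 and 534 RPKM in 3NC, at 540, 554 and 528 in KD, at 564, 522 and 525 in 5NC, and at 633, 612 and 585 in OV. The groups 3NC, KD and 5NC overlapped, with means of 536, 541 and 537 RPKM, and OV lay above them. Sprr1a was at 5.75, 4.78 and 4.11 RPKM in 3NC and at no more than 0.41 in the other libraries: 0.10, 0.10 and 0.41 in KD, 0.21, 0.19 and 0.10 in 5NC, and 0.19, 0.38 and 0.10 in OV. All 9 of these low values lay within 0.03 RPKM of 1, 2 or 4 times the smallest value of 0.10, and the 3NC values were 41 to 58 times that value. If the smallest value stands for 1 read, the 9 libraries held 1 to 4 reads of Sprr1a, too few to order them. Sprr1a passed the filter on low values through its 3 libraries of 3NC, and Krt7 through the other groups.

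In KD against 3NC, Krt7 and Krt18 were higher and Krt80 and Sprr1a were lower, with no overlap between libraries. The mean of Krt7 was 4.92 ± 0.824 RPKM in KD and 0.770 ± 0.314 in 3NC (SD, n = 3 each), a difference of 1.75 on the scale of log2(RPKM + 1), which is used for all differences below and understates changes of low genes. For Krt18 the difference was 0.53, for Krt80 it was -0.47, and for Sprr1a it was -2.29. Krt8 (-0.06), Krt19 (-0.11) and Vim (0.01) differed by little, and their groups overlapped. Over all genes tested, 62.8% did not overlap between KD and 3NC, so that 4 of 7 was near this background, and nothing is read from the count, since the genes were chosen with this comparison known. The median difference of the 7 genes was -0.06, against 0.04 over all genes.

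The control groups differed from each other for the same pair of genes. In 5NC against 3NC the difference was 1.33 for Krt7 and -2.33 for Sprr1a, where the latter was the 5th most negative of 11435 genes. Krt19 (-0.24) and Krt80 (0.19) also did not overlap, while Krt18 (-0.15), Krt8 (0.18) and Vim (0.00) did. Thus 4 of 7 genes did not overlap between the control groups, where 69.3% of all genes did not. KD against 3NC and 5NC against 3NC share the 3NC libraries, so their values for Krt7 and Sprr1a are not independent of each other. In KD against 5NC, which also differ in vector, Krt18 differed by 0.68, Krt7 by 0.42 and Krt80 by -0.66, with no overlap, and 69.4% of all genes had none. Sprr1a differed by 0.04 there. The difference of Krt18 was positive and that of Krt80 negative against both control groups, in comparisons that share the KD libraries, whereas that of Sprr1a was large only against 3NC.

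**Figure D2:**
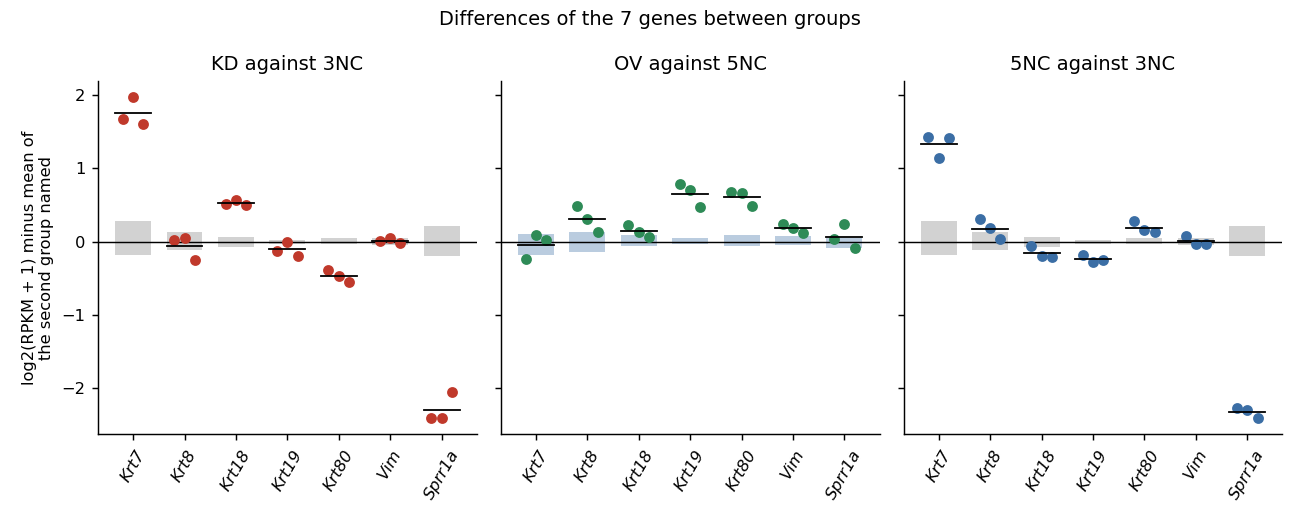
Difference of log2(RPKM + 1) for the 7 genes (horizontal axis) in each of the named comparisons. Points are the 3 libraries of the first group minus the mean of the second group, lines are their means, and shaded bands give the range of the second group. Krt7 and Sprr1a lie far outside the band in both comparisons with 3NC and within or near it in OV against 5NC, where Krt19 and Krt80 stand highest.

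In OV against 5NC, Krt19, Krt80 and Vim rose and none of the 7 genes fell. Krt19 rose by 0.65 (standard error 0.07, limma adjusted p = 6.35e-05), from 212 ± 7.27 to 334 ± 36.5 RPKM, 1.58 times the level in 5NC. Krt80 rose by 0.61 (standard error 0.07, limma adjusted p = 0.000101), from 12.2 ± 0.746 to 19.2 ± 1.48 RPKM, or 1.57 times. These were the 18th and 22nd largest increases of 11435 genes. Vim rose by 0.18 (standard error 0.05, limma adjusted p = 0.0144), from 537 ± 23.6 to 610 ± 24.0 RPKM (SD, n = 3 each), a change of 13.5%. The rise of Vim passed with the spread of all 4 groups, but the limma adjusted p was 0.0534 when OV and 5NC were fitted by themselves and 0.298 after quantile normalization (difference 0.06). It was 0.0584 without replicate 1 of OV, 0.0558 without replicate 2 of OV, 0.0686 without replicate 2 of 5NC and 0.0607 without replicate 3 of 5NC (limma). Krt8 (difference 0.31, standard error 0.11, limma adjusted p = 0.0569) and Krt18 (difference 0.14, standard error 0.05, limma adjusted p = 0.0755) did not pass, and their libraries overlapped between the groups. Krt8 passed after quantile normalization (limma adjusted p = 0.0277), without replicate 3 of OV (0.0149) and without replicate 3 of KD (0.0404). Krt18 passed without replicate 1 of 5NC (limma adjusted p = 0.0430) and without replicate 3 of OV (0.0187).

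Krt7 did not pass in OV against 5NC, with a difference of -0.04 (standard error 0.13, limma adjusted p = 0.852). Sprr1a differed by 0.06, and no p is given for it, since its values in both groups were too low for a test to pass. Of all genes tested, 8.07% were higher and 13.9% lower in OV at an adjusted p of at most 0.05, beside 3 higher and 0 lower among the 7. Without overlap were 3 of the 7 genes and 36.7% of all genes. The median difference was 0.18 over the 7 genes and -0.03 over all genes. By an exact permutation test of 3 against 3 libraries, two-sided, Krt19, Krt80 and Vim each reached 0.1, the smallest p that this design allows. The methods of the study set stricter limits, 0.001 for the adjusted p together with a log2 ratio of 1 in either direction. They were set there for another test, DEGseq, and by its own analysis the study reported genes higher and lower in OV. Here the limits were applied to the limma adjusted p and to the difference of log2(RPKM + 1), which is smaller for low genes. No gene tested (0 of 11435, 0.0%) met them so in this comparison, although 923 higher and 1595 lower genes passed at 0.05. Within OV, replicate 1 had the highest and replicate 3 the lowest value of Krt8, Krt18, Krt19, Krt80 and Vim, while Krt7 was lowest in replicate 1.

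Base composition moved with OV against 5NC and, to a differing extent, with the other comparisons. The median difference in OV against 5NC was -0.13 among the tenth of genes with the lowest GC content and 0.07 among the tenth with the highest. In the same order it was 0.12 and -0.10 in KD against 5NC, 0.09 and -0.03 in KD against 3NC, and -0.03 and 0.07 in 5NC against 3NC. The part of base composition in the results was not tested further than by the following values. Relative to the median of genes whose GC content lay within 2 percentage points of their own, Krt19 was higher by 0.59, Krt80 by 0.58, Vim by 0.25, Krt8 by 0.26 and Krt18 by 0.09 in OV.

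The make-up of the keratin RNA differed between groups. Krt7 made up 5.88 ± 2.05% of the summed RPKM of the 3 type II keratins in 3NC, 19.5 ± 2.22% in 5NC, 35.7 ± 3.40% in KD and 13.2 ± 2.39% in OV (SD, n = 3 each). Krt80 made up most of the rest, so that its share is nearly fixed by that of Krt7, with 82.2 ± 2.07% for 3NC, 76.5 ± 1.12% for OV, 69.8 ± 1.43% for 5NC and 53.8 ± 3.63% for KD. The sum of the type II chains was 12.9 ± 0.762 RPKM in 3NC and 13.7 ± 1.27 in KD, so that in KD a higher Krt7 stood beside a lower Krt80 with a like total. It was 17.6 ± 1.25 in 5NC and 25.1 ± 1.69 in OV.

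The type I chains exceeded the type II chains in every library. The ratio of their sums was 24.6 ± 1.16 in 3NC, 15.5 ± 0.478 in 5NC, 24.1 ± 1.24 in KD and 16.0 ± 0.721 in OV, which separates the LV3 from the LV5 groups. Within type I, the ratio of Krt19 to Krt18 was 3.71 ± 0.210 in 3NC, 3.50 ± 0.0951 in 5NC, 2.38 ± 0.104 in KD and 4.99 ± 0.299 in OV, lowest in KD and highest in OV without overlap with another group. Krt18 exceeded Krt8, the chain it pairs with in simple epithelia, between 23.3 and 84.3 times over the 12 libraries. Vim equalled 1.62 ± 0.0285 times the sum of the 5 keratins in 3NC, 1.85 ± 0.00693 in 5NC, 1.57 ± 0.0478 in KD and 1.44 ± 0.0900 in OV. The keratin sum itself was 331 ± 4.94 RPKM for 3NC, 344 ± 18.7 for KD, 290 ± 11.9 for 5NC and 426 ± 41.7 for OV. These ratios are of RNA per length and say nothing of the proteins.

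**Figure D3:**
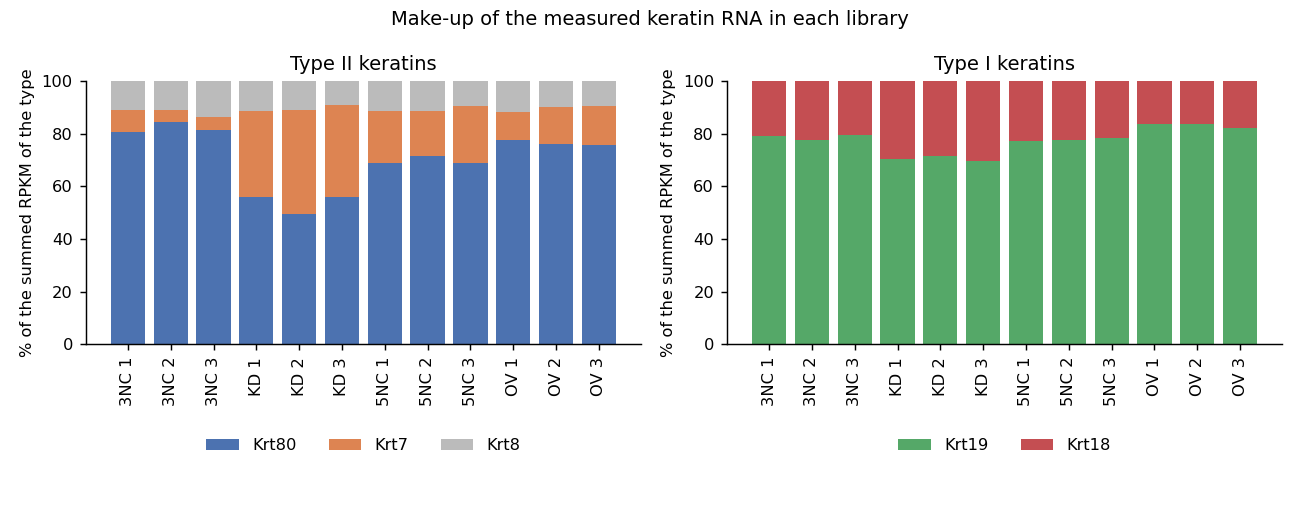
Share of each keratin in the summed RPKM of its type (vertical axes, percent) in the 12 libraries (horizontal axes), type II on the left and type I on the right. Krt7 takes 32.8 to 39.5% of type II in the KD libraries and 4.51 to 8.24% in those of 3NC, and Krt18 takes its largest share of type I in KD.

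The rest of the keratin family was nearly silent. The table held 25 other keratin genes, of which 24 did not pass the filter of at least 1 RPKM in at least 3 libraries. Their highest value in any library was 0.29 RPKM, and Krt76 was listed at 0 everywhere. The exception was Krt10, the type I keratin of differentiating epidermis, with 2.31 ± 0.442 RPKM in 3NC, 2.54 ± 0.401 in 5NC, 2.87 ± 0.374 in KD and 2.22 ± 0.146 in OV (SD, n = 3 each). It did not pass in KD against 3NC (difference 0.23, limma adjusted p = 0.0876), in OV against 5NC (-0.13, adjusted p = 0.411) or in 5NC against 3NC (0.10, adjusted p = 0.461), although it passed in KD against 3NC without replicate 2 of KD (limma adjusted p = 0.0401) or without replicate 2 of 3NC (0.0413). Of the 8 other Sprr genes none passed the filter, and Sprr2d was listed at 0 in all libraries. The summed level of the 8 was 2.42, 1.20 and 1.33 RPKM in the libraries of 3NC and no more than 0.42 in any other library. Sprr2k (1.32, 0.40 and 1.04), Sprr2e (1.04, 0.26 and 0) and Sprr2h (0, 0.54 and 0.11) carried most of it in 3NC, and these were named after their values were seen. Sprr2a1 and Sprr2a2 had the same value in each library, as genes do whose reads cannot be told apart.

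Among 21 other genes of intermediate filaments and of the cytolinkers that tie filaments to junctions and to the nucleus, 6 were higher and 8 lower in KD against 3NC, beside 31.9% and 23.5% of all genes tested. The list contains no member of the 7 genes, and like the lists below it was written with earlier results of these data known. Lmna, the gene of the nuclear lamins A and C, fell by 0.59 (limma adjusted p = 1.13e-05), from 116 to 77.0 RPKM, and Iffo2, an intermediate filament family orphan, fell by 0.54 (adjusted p = 6.53e-06). The desmosomal genes Jup (plakoglobin) and Dsp (desmoplakin, the plaque protein to which keratins attach) rose by 0.55 (limma adjusted p = 1.05e-05) and 0.50 (adjusted p = 0.000423), Dsp from 1.41 to 2.41 RPKM. In 5NC against 3NC 7 were higher and 9 lower, where the background was 31.0% and 25.6%. There Jup rose by 0.23 (limma adjusted p = 0.0118) and Dsp by 0.44 (adjusted p = 0.00119), while Lmna fell by 0.36 (adjusted p = 0.000814). Prph, a type III filament like vimentin, rose by 0.88 in that comparison (limma adjusted p = 2.38e-08), from 56.6 to 104.8 RPKM, and the desmosomal plakophilin Pkp1 fell by 0.78 (adjusted p = 7.57e-07). Of the list 2 were higher in OV against 5NC (8.07% of all genes), Lmna by 0.28 and Jup by 0.25, and 4 lower (13.9%), among them Prph, which fell by 0.53 (limma adjusted p = 0.00018). No gene of the list was higher in OV without replicate 1 or 2 of OV or without replicate 2 or 3 of 5NC, and 1 to 2 were lower without replicate 1 or 2 of OV or replicate 2 of 5NC. The median difference of the list was -0.04 in KD against 3NC, -0.06 in 5NC against 3NC and 0.07 in OV against 5NC.

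Of 31 cornified envelope genes in the table, only 5 passed the filter, and all 5 passed the test in KD against 3NC, 4 higher and 1 lower, beside 31.9% and 23.5% of all genes tested. Cdsn (corneodesmosin, an adhesion protein of the outer epidermis) fell by 1.08 (limma adjusted p = 1.69e-09), from 10.9 to 4.64 RPKM. S100a11, Anxa1, Scel and S100a10 rose by 0.40, 0.29, 0.30 and 0.23 (limma adjusted p between 3.03e-05 and 0.00968). S100a10 and S100a11, of the S100 family, and the membrane-binding annexin Anxa1 are found in many cell types, with group means between 315 and 1273 RPKM. Cdsn and Scel (sciellin) were higher in 5NC than in 3NC, by 1.75 (limma adjusted p = 6.33e-12) and 1.29 (adjusted p = 1.22e-08), the opposite of Sprr1a, which was lower in 5NC. Cdsn thus moved with Sprr1a in KD against 3NC and against it in 5NC against 3NC. In OV against 5NC, S100a11, Anxa1 and S100a10 rose by 0.32, 0.34 and 0.27 (limma adjusted p between 0.000211 and 0.00387), 3 of 5 beside 8.07% of all genes, and Cdsn (0.05) and Scel (0.13) did not pass. In 5NC against 3NC 1 gene of the list, Anxa1, was lower (25.6% of all genes) beside the 2 that were higher (31.0%), and without replicate 3 of OV, which takes part in that fit only through the shared spread, 3 were.

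Of 46 genes of epithelial identity in the table, 14 passed the filter, and 6 were higher, 5 lower and 3 did not pass in KD against 3NC, where 31.9% of all genes tested were higher and 23.5% lower. Elf3, an epithelial ETS factor, rose by 0.54 (limma adjusted p = 0.00211) and Myo5b, a motor of apical transport, by 0.47 (adjusted p = 0.000141). Cd24a, a surface glycoprotein, fell by 0.48 (limma adjusted p = 1.36e-06), and the Krüppel-like factor Klf5 fell by 0.36 (adjusted p = 0.000616). In 5NC against 3NC 6 were higher and 4 lower (31.0% and 25.6% of all genes). P-cadherin (Cdh3) rose there by 1.70 (limma adjusted p = 8.68e-13), from 19.5 to 65.8 RPKM, and Klf4 by 1.60 (adjusted p = 2.62e-10). Between OV and 5NC 1 was higher, Cd24a by 0.35 (limma adjusted p = 0.00073), and 3 were lower, among them Myo5b by -0.42 (adjusted p = 0.00383), beside 8.07% and 13.9% of all genes. Without replicate 2 or replicate 3 of 5NC, 2 genes were lower in 5NC than in 3NC, and without replicate 1 of 5NC or replicate 3 of KD, 2 were higher in OV.

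Of 37 tested genes of mesenchymal identity, the side on which vimentin is usually counted, 16 were higher and 10 lower in KD against 3NC, 17 higher and 10 lower in 5NC against 3NC, and 1 higher and 13 lower in OV against 5NC. The shares of all genes tested that were higher and lower were 31.9% and 23.5% for KD, 31.0% and 25.6% for 5NC and 8.07% and 13.9% for OV. Fn1 (fibronectin) fell by 1.06 in KD (limma adjusted p = 2.4e-08), and Lox, which cross-links collagen, by 0.97 (adjusted p = 6.77e-09). Smooth muscle actin (Acta2), also on the myoid list, rose by 1.04 (limma adjusted p = 3.27e-08), from 8.52 to 18.6 RPKM. Dcn (decorin) and Col3a1 rose by 2.32 (limma adjusted p = 4.65e-14) and 1.68 (adjusted p = 8.74e-13) in 5NC against 3NC. From 5NC to OV Acta2 fell by 0.60 (limma adjusted p = 0.000244) and Lox by 0.38 (adjusted p = 0.00138), while Vim rose. Without replicate 2 of OV, 8 genes were lower in that comparison, and without replicate 2 or 3 of KD, 2 were higher. The stricter limits were met by 3 genes of this list in KD against 3NC and by 6 in 5NC against 3NC, where 1.57% and 2.61% of all genes met them. The median difference of the list was 0.11 in KD, 0.13 in 5NC and -0.09 in OV, each against the control group named above.

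**Figure D4:**
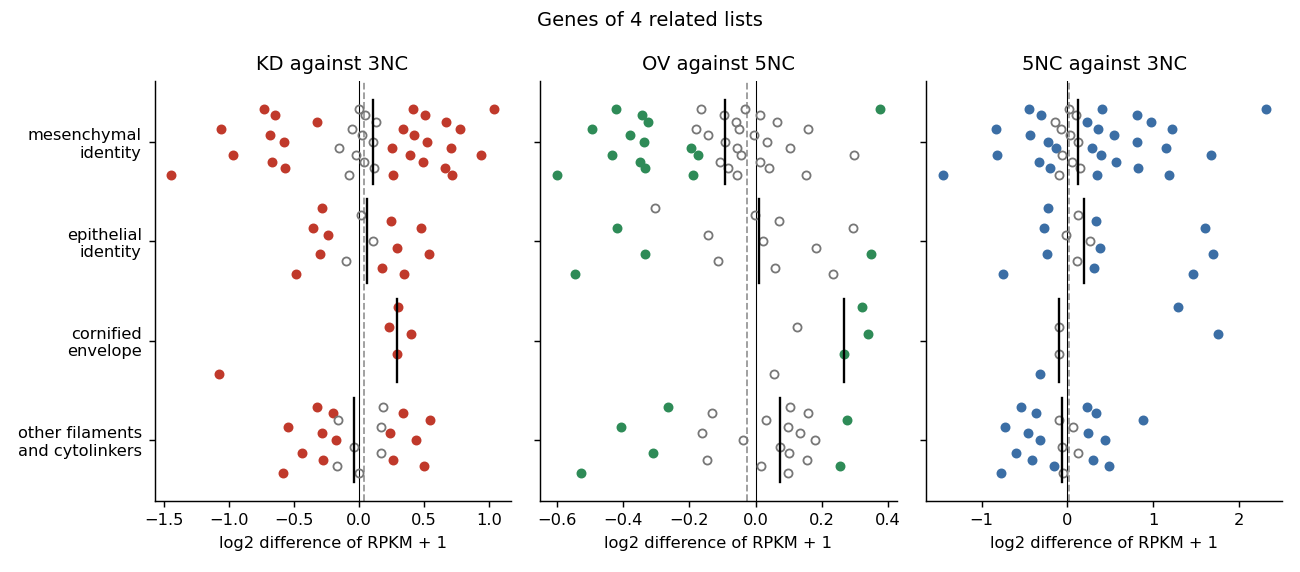
Difference of log2(RPKM + 1) for the tested genes of 4 lists (rows) in the comparisons named (panels, each with its own horizontal scale). Filled points passed at an adjusted p of at most 0.05, open points did not, black bars are list medians and the dashed line is the median of all genes. In OV against 5NC 13 of 37 mesenchymal genes lie at the lower side as filled points.

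The genes whose profiles lay nearest to each of the 7 were found by the root mean square (RMS) difference of centred log2(RPKM + 1) over the 12 libraries. All profiles share the same libraries, and a gene of small spread has near neighbours for that reason alone, so each distance is set beside the gene's own RMS spread. For Krt7, with a spread of 0.675, the nearest were Gas6 (0.169), Il18 (0.229) and Adamts5 (0.252), each lowest in 3NC. Gas6, a ligand of TAM receptors, was at 29.7 ± 1.12 RPKM in 3NC, 79.5 ± 2.09 in 5NC, 97.8 ± 8.35 in KD and 69.8 ± 4.22 in OV (SD, n = 3 each). For Sprr1a, with a spread of 1.003, they were Prkg2 (0.243), Mmp10 (0.279) and Egln3 (0.289), each highest in 3NC. The matrix metalloproteinase Mmp10 was at 4.38 ± 0.223 RPKM in 3NC and between 0.243 and 0.643 in the means of the other groups.

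**Figure D5:**
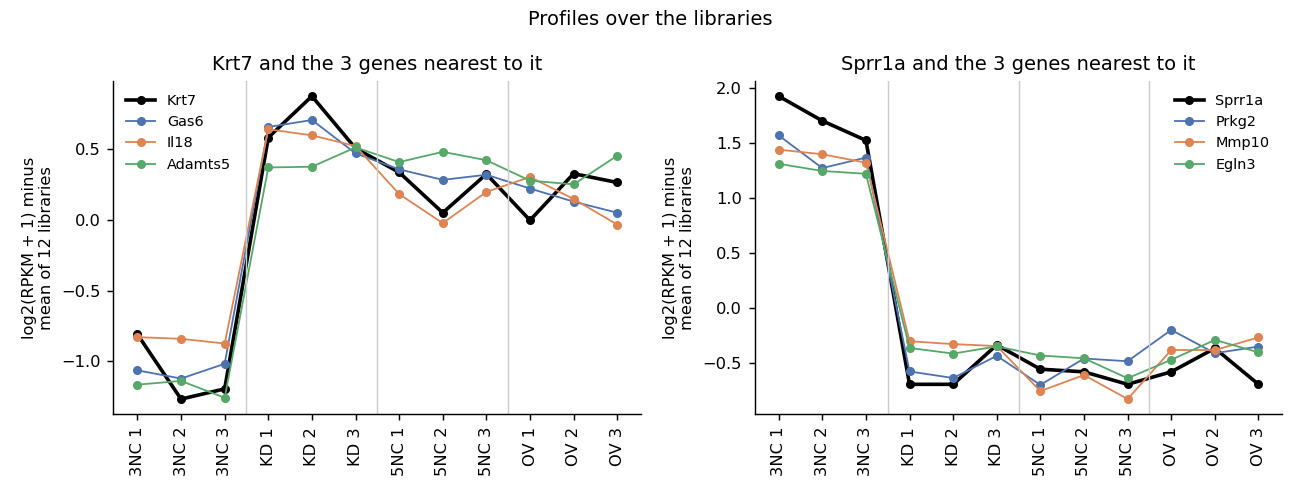
Centred log2(RPKM + 1) (vertical axes) of Krt7 and of Sprr1a (black) with the 3 genes nearest to each in the 12 libraries (horizontal axes). The 3NC libraries stand below all others for Krt7 and its neighbours and above all others for Sprr1a and its neighbours.

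The keratins had different neighbours from each other. Krt80 (spread 0.459) was nearest to Ddit3 (0.113), the stress-induced transcription factor CHOP, which was at 87.6 ± 1.38 RPKM in 3NC, 106 ± 2.74 in 5NC, 56.1 ± 1.86 in KD and 143 ± 13.3 in OV, and then to Nol9 (0.121) and Isyna1 (0.130). Krt19 (spread 0.256) was nearest to Sdf2l1 (0.0681) and Dnajb11 (0.0996), both of which encode endoplasmic reticulum chaperone proteins, and to Armc7 (0.113). Krt18 (spread 0.266) was nearest to the cyclin gene Ccnb2 (0.0572), Cir1 (0.0703) and Cog4 (0.0713). Krt8 (spread 0.248) was nearest to Tmem160 (0.0600), Sgta (0.0754) and Gnb2 (0.0807), and Vim (spread 0.0887) to Samm50 (0.0350), Mdh2 (0.0380) and the tubulin gene Tubb5 (0.0402). Each of the 7 genes was farther from the other 6 than from its 3 nearest genes. From Krt18 to Krt8, its partner and chromosomal neighbour, the distance was 0.431, so that Krt8 had place 9163 of 11434 genes by nearness to Krt18. From Krt7 to Krt80, its neighbour on chromosome 15, the distance was 0.846, above the spread of either gene. The closest pair among the 7 were Krt8 and Vim (0.176), followed by Krt19 and Vim (0.180 from Krt19) and by Krt8 and Krt19 (0.183).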

How the data were processed

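Expression was measured by RNA-seq in 12 libraries of C18-4 cells, 3 each of 3NC, KD, 5NC and OV, grouped by their labels. The authors deposited 1 table of RPKM values for 17576 genes; per the study's methods, mRNA was enriched with oligo(dT) and reads were mapped with SOAPaligner (2.20). The genome build and gene set are not given in the sources used here, and depth per library is unknown beyond the steps of low values. The 11435 genes that reached 1 RPKM in 3 or more libraries were fitted as log2(RPKM + 1) with limma (3.58.1, R 4.3.3; lmFit, eBayes with trend) over all 4 groups, since the values are not counts, with Benjamini-Hochberg adjustment over these genes; a gene passed at an adjusted p of at most 0.05. The fit was tested on simulated data. Each of the 7 genes was also compared between OV and 5NC by an exact permutation test.

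The members and the gene lists were chosen with earlier results of these data known. Named were all 7 genes, other keratins that passed the filter, in each list up to 4 genes that passed with the largest difference in KD against 3NC and up to 2 more from 5NC against 3NC, and the 3 genes nearest in profile to each of the 7. A gene named by these choices is not reported here. S100a10, the Sprr2 genes and the AP-1 genes were named after their values were seen. GC content and shared runs of bases came from GENCODE vM21 transcripts, and promoter windows from RefSeq (GRCm38.p6). RPKM carries library composition and base composition effects. Alternatives were another pseudocount, no filter, quantile normalization, a fit of the compared groups only, a replicate block, stricter limits, each library left out, and a comparison with genes of like GC content, which was added after seeing the data.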

Additional observations from a re-analysis of the deposited data

How the results depend on the processing

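Of 492 values of the 7 genes under alternatives, 465 kept their call or stayed within the spread of replicates, and of 432 list counts 387 stayed within 1.5 times. In comparisons without a test, however, some alternatives cannot move a difference. These are the fit of 2 groups, the fit without a filter, the replicate block and the leaving out of a library of another group. Such values count among the 465, which therefore overstates how stable the differences are. Krt19 and Krt80 passed in OV against 5NC at an adjusted p of at most 0.05 under every alternative fit (adjusted p at most 0.0032 and 0.0034, limma), but not under the stricter limits, which no gene tested met there. With a pseudocount of 0.1 the difference of Krt7 was 2.58 in KD against 3NC and 2.07 in 5NC against 3NC, and that of Sprr1a -4.17 and -4.24, as low values weigh more on that scale. After quantile normalization the difference was -0.19 for Krt19 in KD against 3NC, 0.40 for Krt8 (which then passed) and 0.062 for Vim (which no longer passed) in OV against 5NC, and for Vim -0.027 in KD against 3NC, 0.11 in 5NC against 3NC and -0.13 in KD against 5NC. In a fit of OV and 5NC by themselves Vim (0.18) no longer passed. With the replicate block Krt8 (0.31) passed in OV against 5NC, and 2 genes each of the epithelial and mesenchymal lists were higher there. Deviations of libraries with the same number correlated between -0.178 and 0.176, and in no comparison were all above 0.1. The main fit took the libraries as unpaired, but with 3 libraries per group these values cannot tell whether the numbers pair them. Relative to genes of like GC content, an alternative chosen after seeing the data, the difference of Vim was -0.054 in KD against 3NC, 0.25 in OV against 5NC and -0.047 in KD against 5NC, that of Krt18 -0.23 in 5NC against 3NC and 0.75 in KD against 5NC, and that of Krt19 -0.32 and 0.21. With each library left out in turn, the difference in OV against 5NC was between 0.22 and 0.40 for Krt8, 0.10 and 0.19 for Krt18, and 0.16 and 0.22 for Vim. Over the same fits in OV against 5NC, 0 to 3 genes of other filaments and cytolinkers were higher and 1 to 6 lower, 1 to 2 epithelial genes were higher, and 1 to 2 mesenchymal genes were higher and 8 to 16 lower, while in 5NC against 3NC 1 to 3 cornified envelope and 2 to 4 epithelial genes were lower. Without a filter, 1 gene of other filaments and 2 epithelial genes were higher in OV against 5NC, and 5 (KD) and 4 (5NC) cornified envelope genes were lower than in 3NC, where more genes of low value were tested. Quantile normalization gave 2 higher genes in OV for both the epithelial and the mesenchymal list, and the fit of 2 groups gave 3 lower cornified envelope genes in 5NC against 3NC. Under the stricter limits, counts were 0 for other filaments in all comparisons, for all lists in OV against 5NC and for the epithelial list in KD. For the other counts they were 0 higher and 1 lower (cornified envelope) and 1 higher and 2 lower (mesenchymal) in KD against 3NC, and 2 higher and 0 lower (cornified envelope), 3 and 0 (epithelial) and 5 and 1 (mesenchymal) in 5NC against 3NC. Except where a sentence states otherwise, the cause was not tested. Sprr1a did not pass the filter when a library of 3NC was left out, so those fits hold no value for it. Levels of Sprr1a outside 3NC lie at a few steps of its lowest value, so depth limits their comparison.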

Other observations

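The Jun and Fos families encode the subunits of AP-1, the factor whose letters occur at 2 places in the Sprr1a window. This list of 7 genes was looked up after the profile of Sprr1a and its window were seen, and 6 of the 7 passed the filter. In KD against 3NC 5 fell and 1 rose, beside 23.5% and 31.9% of all genes tested, and Fosl1 had the largest difference, -4.03 (limma adjusted p = 1.07e-11), at 31.0 ± 1.10 RPKM in 3NC and 0.983 ± 0.409 in KD (SD, n = 3 each). Fos was the gene that rose, by 1.08 (limma adjusted p = 2.89e-09), from 9.67 to 21.5 RPKM. Fosl2, Jun, Junb and Jund fell by 0.79, 0.83, 0.51 and 0.30 (limma adjusted p between 1.18e-08 and 0.0431). In 5NC against 3NC, where Sprr1a was also lower, 4 fell and 2 rose, beside 25.6% and 31.0%. Fosl1 was at 1.72 ± 0.223 RPKM in 5NC (difference -3.56, limma adjusted p = 7.51e-12), Fos fell by 0.46, and Fosl2 and Jund rose by 0.43 and 0.42 (limma adjusted p = 6.45e-06 and 0.00761). Fosl1 thus shared the pattern of Sprr1a, high in 3NC and low elsewhere, and the other subunit genes did not all follow it. In OV against 5NC Fosl1 rose by 0.66 (limma adjusted p = 0.00354), from 1.72 to 3.30 RPKM, and Jun by 0.29 (adjusted p = 0.004), Fos fell by 0.34 (adjusted p = 0.0032), and the other 3 did not pass, beside 8.07% of all genes higher and 13.9% lower. Sprr1a was too low in OV and 5NC to be compared. Fosb was at most at 0.350 RPKM in the mean of any group. Whether AP-1 binds the Sprr1a promoter in these cells was not tested.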
